A study of Mus musculus with 2 samples.

Results

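The miR-148/152 family of the mouse consists of 3 microRNA genes, Mir148a, Mir148b and Mir152, which were picked by name from the 1973 microRNA gene rows of the deposited tables. All 3 had a row. The libraries were made from kidneys of healthy B6NCrl mouse embryos at embryonic day 16.5 (E16.5), with males and females pooled and RNA fragments under 30 nt sequenced, per the labels. The only group holds 2 libraries, labelled biological replicates 1 and 2, of which replicate 2 was pooled from 41 embryos. No treated or mutant group exists, so the comparisons are between the members and between the libraries. Both libraries carry the same donor record, so the spread between them may be partly technical.

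A microRNA is cut from a hairpin precursor, and one strand of the resulting duplex is loaded into an Argonaute protein, where bases 2 to 8, the seed, pair with target messenger RNAs. MicroRNAs with the same seed are counted as a family because they can act on overlapping targets. The miR-148/152 family is known for repressing Dnmt1, the enzyme that maintains DNA methylation when DNA is copied. In mice and humans miR-148a is further known as an abundant liver microRNA that lowers the low-density lipoprotein receptor, and in mice it has been linked to B-cell tolerance.

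The mature sequences of the arm that carries the family seed are shown first, 5′ to 3′, because they show what the members have in common and where they differ. They are RefSeq sequences on GRCm38.p6, and capitals mark the seed.
mmu-miR-148a-3p: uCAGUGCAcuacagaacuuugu
mmu-miR-148b-3p: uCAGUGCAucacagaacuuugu
mmu-miR-152-3p: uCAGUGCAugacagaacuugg
The seed CAGUGCA was identical in all 3 and occurred in no other of the 1738 mature mouse entries of that table. Over the positions compared from the 5′ end, miR-148a-3p and miR-148b-3p matched at 20 of 22, miR-148a-3p and miR-152-3p at 18 of 21, and miR-148b-3p and miR-152-3p at 19 of 21. With positions counted from 1 at the 5′ end and the miR-148a-3p base first, miR-148b-3p differed by C9U and U10C. miR-152-3p differed from miR-148a-3p by C9U, U10G and U20G. The differences therefore began directly after the seed.

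The opposite arms are shown because their seeds split the family. Capitals again mark bases 2 to 8.
mmu-miR-148a-5p: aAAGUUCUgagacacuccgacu
mmu-miR-148b-5p: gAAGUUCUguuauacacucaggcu
mmu-miR-152-5p: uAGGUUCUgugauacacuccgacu
The seed AAGUUCU was shared by miR-148a-5p and miR-148b-5p, while AGGUUCU was found in miR-152-5p alone among the 1738 entries. The longest run of identical bases was 12 between miR-148a-3p and miR-148b-3p, against 8 between their 5p arms. For miR-148a and miR-152 the order was the other way, with 9 on the 3p arm and 11 on the 5p arm. For miR-148b and miR-152 the runs were 9 and 8. Over the positions compared from the 5′ end, miR-148b-5p and miR-152-5p matched at 19 of 24, although their seeds differ. miR-148a-5p matched miR-148b-5p at 13 of 22 and miR-152-5p at 12 of 22. The deposited tables count reads per gene, so the arms cannot be told apart, and each level below is the sum of both.

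The precursors show how both arms sit in the hairpin. Capitals mark the mature 5p arm and then the mature 3p arm.
Mir148a: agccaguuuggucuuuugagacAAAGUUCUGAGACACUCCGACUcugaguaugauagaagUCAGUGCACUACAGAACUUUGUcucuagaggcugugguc
Mir148b: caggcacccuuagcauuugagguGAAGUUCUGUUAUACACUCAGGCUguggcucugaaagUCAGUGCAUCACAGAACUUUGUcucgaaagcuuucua
Mir152: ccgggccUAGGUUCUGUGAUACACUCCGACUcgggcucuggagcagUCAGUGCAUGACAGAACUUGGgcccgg
Mir152 had the shortest precursor, 73 nt against 99 nt for Mir148a and 97 nt for Mir148b, and the highest share of G and C, 61.6% against 45.5% and 45.4%. RNAfold gave minimum free energies of -41.0 kcal/mol for Mir148a, -30.9 kcal/mol for Mir148b and -43.5 kcal/mol for Mir152. In these predicted folds 17 of the 22 bases of miR-148a-3p paired with the 5p arm, 15 of 22 for miR-148b-3p and 18 of 21 for miR-152-3p. The longest stretch shared between members was 15 nt, between Mir148a and Mir148b. Outside the family none of the other microRNA genes of GENCODE M21 shared a run of more than 12 nt with a member, read on the same strand. No member therefore has an 18-nt stretch in common with another annotated microRNA gene, the kind of overlap that sends reads to the several-places row, which is in no gene count. Whether similar sequence lies elsewhere in the genome was not tested.

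The 3 genes lie on separate chromosomes, and positions are on mm10. Mir148a (ENSMUSG00000065505) is on the minus strand of chromosome 6, from 51269812 to 51269910. No GENCODE M21 gene other than Mir148a overlaps it. A gene model of RefSeq, Gm38821, spans it and is classed there as protein-coding. Its strand was not given, so whether it is a host was not settled. The nearest protein-coding GENCODE gene, Nfe2l3, is 162.8 kb away. The nearest gene of a long intergenic noncoding RNA, Gm32479, lies 13.6 kb away on the same strand. Whether Gm32479 shares a transcript with Mir148a was not tested. Mir148b (ENSMUSG00000065560) is on the plus strand of chromosome 15, from 103285125 to 103285221, in an intron of Copz1. Mir152 (ENSMUSG00000065515) is on the plus strand of chromosome 11, from 96850393 to 96850465, in an intron of Copz2. Copz1 and Copz2 encode the alternative zeta subunits of coatomer, the coat of vesicles that return proteins to the endoplasmic reticulum.

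The host genes have matching exon structures. In the only annotated transcript of each host with 9 exons, the microRNA lies in intron 1 in sense orientation, and 7 of the 9 exons, the second to the eighth, have equal lengths in both genes (from 39 to 92 nt). The introns themselves differ. Intron 1 is 16159 nt long in that Copz1 transcript and 676 nt in that of Copz2. Mir148b starts 12183 nt after exon 1 and ends 3879 nt before exon 2, while Mir152 lies 396 nt after exon 1 and 207 nt before exon 2.

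**Figure D1:**
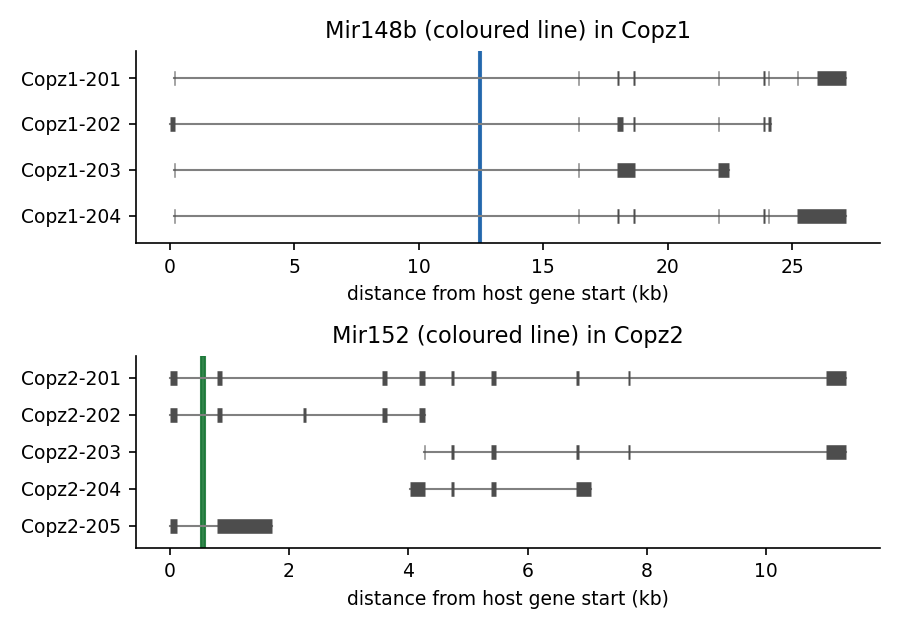
Annotated transcripts of Copz1 (top) and Copz2 (bottom), with exons as thick bars, introns as thin lines and the microRNA as a coloured line, by distance in kb from the start of the host gene. Mir148b and Mir152 both lie in intron 1 of their hosts, 12183 nt and 396 nt after exon 1 of the transcripts with 9 exons.

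Genes of the Cbx, Nfe2, Hnrnpa and Copz families were looked for around the members, and Cbx and Nfe2 genes recur around all 3. A Cbx gene, which encodes a heterochromatin protein, lies 200.4 kb from Mir148a (Cbx3), 45.3 kb from Mir148b (Cbx5) and 41.8 kb from Mir152 (Cbx1). A gene of the Nfe2 transcription factor family lies 162.8 kb from Mir148a (Nfe2l3), 26.7 kb from Mir148b (Nfe2) and 20.4 kb from Mir152 (Nfe2l1). The other families do not recur at every member. An Hnrnpa gene lies 191.0 kb from Mir148a (Hnrnpa2b1) and 38.4 kb from Mir148b (Hnrnpa1), but none within 1000 kb of Mir152. Mir148a has no Copz gene within 1000 kb.

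The promoters of the hosts were read in the RefSeq table of 300-base windows. The GC box GGGCGG, searched on both strands, occurred at 5 places in the Copz2 window and at 2 in the Copz1 window, and 35.7% of the 32851 windows held it. CCAAT occurred at 2 places in the Copz1 window and at none in the Copz2 window, with 37.4% of windows holding it, and TATAAA at none in either, with 13.6%. Mir148a is not in that table. Host messenger RNA was not measured, so a member cannot be set against its host's own level.

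Mir148a was the most abundant member. It had 2468 reads in replicate 1 and 3865 in replicate 2, which is 464 CPM (reads per 1000000 sense reads in gene rows) and 542 CPM, with a mean of 503 ± 55.2 CPM (SD, n = 2). Its exact Clopper-Pearson 95% intervals ran from 446 to 483 CPM and from 525 to 560 CPM. On this scale, which divides by library totals, the intervals do not overlap, and the difference depends on the scaling, as the comparison of the libraries shows.

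Mir148b had 771 and 1106 reads in replicates 1 and 2, which is 145 and 155 CPM with a mean of 150 ± 7.18 CPM (SD, n = 2). Its intervals, 135 to 156 and 146 to 165 CPM, overlapped. Mir152 had 643 and 1015 reads, which is 121 and 142 CPM with a mean of 132 ± 15.2 CPM (SD, n = 2). Its intervals, 112 to 131 and 134 to 151 CPM, did not overlap. In both libraries the order was Mir148a, Mir148b, Mir152. The mature products are 21 to 24 nt long, so no scaling by length was applied, and a ratio between members is one of reads, not of molecules.

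**Figure D2:**
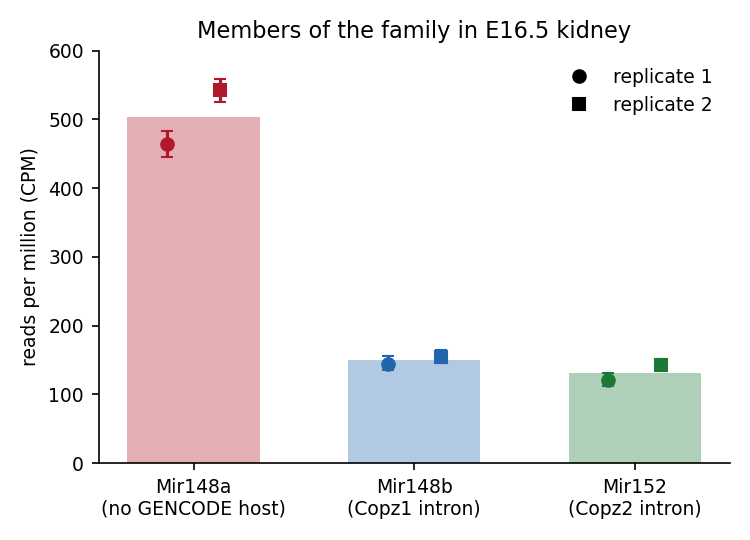
Level of each member in CPM on a linear axis, with bars for the mean of both libraries, circles for replicate 1, squares for replicate 2 and error bars for the exact 95% counting interval. Mir148a lies at 464 and 542 CPM, while Mir148b and Mir152 lie between 121 and 155 CPM.

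Mir148a, which has no GENCODE host, stood 3.34-fold above Mir148b, with ratios of 3.20 in replicate 1 (95% counting interval 2.95 to 3.48) and 3.49 in replicate 2 (3.27 to 3.74). It stood 3.82-fold above Mir152, with ratios of 3.84 (3.52 to 4.19) and 3.81 (3.55 to 4.08). The ratio of Mir148a to Mir152 was nearly the same in the libraries, with an SD of 0.0081 on the log2 scale. Both mean ratios exceeded 1.35-fold. That bound holds 95% of differences between the means over 2 libraries of genes of equal level, if each gene varies independently with the pooled replicate SD. That SD was 0.22 on log2 CPM, over the 181 genes that averaged 100 CPM or more. It was taken on library totals, so it also holds the scaling difference between the libraries, which cancels in a ratio within a library.

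The intronic members did not stand apart by that measure. Mir148b was 1.14-fold above Mir152 on average, with a ratio of 1.20 (1.08 to 1.33) in replicate 1 and of 1.09 (1.00 to 1.19) in replicate 2. The fold lies within 1.35-fold, and the counting interval of replicate 2 reaches a ratio of 1. With 2 libraries an exact two-sided sign-flip test cannot go below p = 0.5 for any of the 3 pairs, so no p-value is given for them. The order of these neighbours is therefore not resolved, while Mir148a ranks above both.

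Summed, the family took 730 CPM in replicate 1 and 840 CPM in replicate 2. That is 0.0730% (exact 95% bounds 0.0707 and 0.0753) and 0.0840% (0.0819 and 0.0861) of the reads in gene rows, with a mean of 0.0785% ± 0.00776 (SD, n = 2). Within the family Mir148a supplied 63.6% of the reads in replicate 1 and 64.6% in replicate 2. Mir148b supplied 19.9% and 18.5%, and Mir152 16.6% and 17.0%. The members in Copz introns thus supplied 36.4% and 35.4% together.

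All 3 members stood in the upper part of the abundance order of detected genes. Detection, at 1 CPM or more in both libraries, was met by all 3 members, against 19.6% of the 1973 rows. Mir148a ranked 102 by mean CPM, Mir148b 155 and Mir152 161. Of the 387 detected genes 73.6% lay below Mir148a, 59.9% below Mir148b and 58.4% below Mir152. Within 1.35-fold of Mir148a there were 13 other genes, within that of Mir148b 33 and of Mir152 37, the other intronic member included in each of these last counts.

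**Figure D3:**
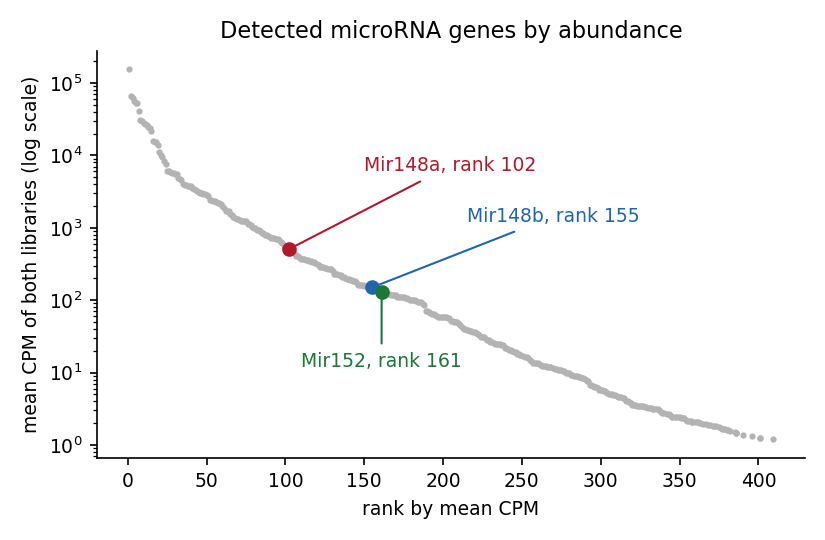
Mean CPM of both libraries on a log axis against rank for the 387 detected microRNA genes in grey, with the members in colour. Mir148a is at rank 102, and Mir148b and Mir152 lie close together at ranks 155 and 161.

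By genomic position the members were set against the genes of their own kind. Detected genes in introns of protein-coding genes on the same strand had a median of 53.6 CPM (144 genes), and Mir148b and Mir152 lay above 88 and 86 of them. Detected genes that overlap no other GENCODE gene had a median of 110 CPM (94 genes), and Mir148a lay above 69 of them. All 3 were thus above the median of their class. These are descriptions across genes, which are not replicates.

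Reads on the opposite strand were close to absent. Mir148a and Mir148b had 0 in both libraries, which allows up to 0.564 CPM in replicate 1 and 0.421 CPM in replicate 2 at the limit of 3 reads. Mir152 had 3 in replicate 1 and 0 in replicate 2. The levels of the family therefore do not rest on the choice of strand.

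The genes nearest to each member in level were found by the Euclidean distance of log2 CPM over the 2 libraries, a measure that 2 libraries can only bear loosely. Nearest to Mir148a were Mir34c (distance 0.085), a p53 target at 484 ± 41.5 CPM, Mir320 (0.095) and Mir374b (0.16). Nearest to Mir148b were Mir598 (0.045) at 153 ± 9.03 CPM, Mir222 (0.065), which is known from vascular cells, and Mir24-2 (0.085). Nearest to Mir152 were Mir135b (0.080) at 127 ± 15.6 CPM, Mir92-2 (0.080) and Mir31 (0.15). In mean CPM, Mir199b (510 ± 27.6 CPM) came directly above Mir148a and Mir34c directly below. Mir598 and Mir222 enclosed Mir148b in the same way, and Mir146 and Mir92-2 enclosed Mir152. The next ranks out were held by Mir374b and Mir320 for Mir148a, by Mir300 and Mir24-2 for Mir148b, and by Mirlet7c-2 and Mir543 for Mir152. Among the genes of this paragraph Mir374b, Mir199b, Mir24-2, Mir146, Mir92-2 and Mirlet7c-2 hold 18 nt or more that recur in a further microRNA gene, so their levels are uncertain.

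The libraries were then compared to see how far the members moved between the pools. On edgeR's TMM scaling the log2 ratio of replicate 1 over replicate 2 was -0.08 for Mir148a (counting error 0.037), 0.05 for Mir148b (0.068) and -0.09 for Mir152 (0.073). None of the 3 reached 1.5-fold, a distance passed by 22.4% of the 455 genes with at least 10 reads. Most of those genes averaged under 100 CPM, and of the 181 genes that averaged 100 CPM or more, the range in which the members lie, only 2.21% passed it. Staying within 1.5-fold is therefore common at the level of the members. The median absolute log2 ratio was 0.13 over the 181 genes that averaged 100 CPM or more, and all 3 members lay below it. Their own median was -0.08, beside -0.02 over the 455 genes. With 1 library a side this comparison has no replicate check.

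The reads of the libraries were also put to an exact conditional binomial test, two-sided and adjusted by Benjamini-Hochberg over the 455 genes. It compares these libraries and takes in counting error only. Its power rises with the number of reads, and most of the 455 genes averaged under 100 CPM. A share called over all of them is therefore no background for genes at the level of the members. No member passed an adjusted p of 0.05, against 33.6% of the genes tested. Adjusted p was 0.077 for Mir148a, 0.67 for Mir148b and 0.38 for Mir152. These values depend on the scaling. Against library totals, TMM moved every log2 ratio up by 0.14, and on totals Mir148a stood at -0.22 (exact binomial, adjusted p = 7.5e-09) and Mir152 at -0.24 (exact binomial, adjusted p = 0.0036), both then lower in replicate 1. Mir148b changed sign to -0.10 on totals (exact binomial, adjusted p = 0.26). Of the genes that passed, 52.9% were higher in replicate 1 with TMM and 21.2% with totals. The biological coefficient of variation from edgeR was fitted on the whole table. It was 0.131 at the level of Mir148a, 0.147 at that of Mir148b and 0.149 at that of Mir152, beside 0.142 in common. These values equal the fitted trend by abundance, so they are not a spread measured for each member.

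**Figure D4:**
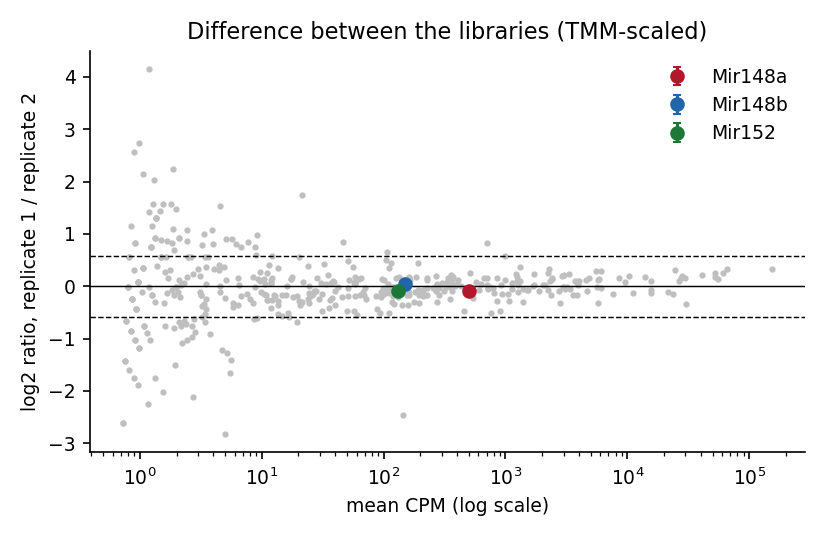
Log2 ratio of replicate 1 over replicate 2 after TMM scaling, against mean CPM on a log axis, for genes with at least 10 reads and reads in both libraries (grey) and the members (colour, with error bars of 1 counting standard error). Dashed lines mark 1.5-fold, and the members lie between -0.09 and 0.05.

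MicroRNA families with all members in paralogous genes offer a loose scale for these ratios. In the miR-148/152 family only Mir148b and Mir152 have such hosts in GENCODE, and they were 1.14-fold apart. The highest and lowest member of the whole family, Mir148a without a GENCODE host and Mir152, were 3.82-fold apart in mean CPM. In the family of Mir103 and Mir107, hosted by Pank genes of coenzyme A synthesis, Mir107 reached 1275 ± 79.8 CPM, Mir103-2 36.0 ± 9.64 CPM and Mir103-1 3.75 ± 1.84 CPM, which is 340-fold from highest to lowest. In the miR-26 family, hosted by Ctdsp phosphatase genes, Mir26b reached 28181 ± 604 CPM, Mir26a-2 42.6 ± 3.38 CPM and Mir26a-1 9.07 ± 3.25 CPM, or 3108-fold. The narrow range of the miR-148/152 family is not tested against these. All 3 Pank-hosted members and 2 of the 3 Ctdsp-hosted members have 18 nt or more in common with a further microRNA gene, so their low values may be undercounts, while no member of the miR-148/152 family does.

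**Figure D5:**
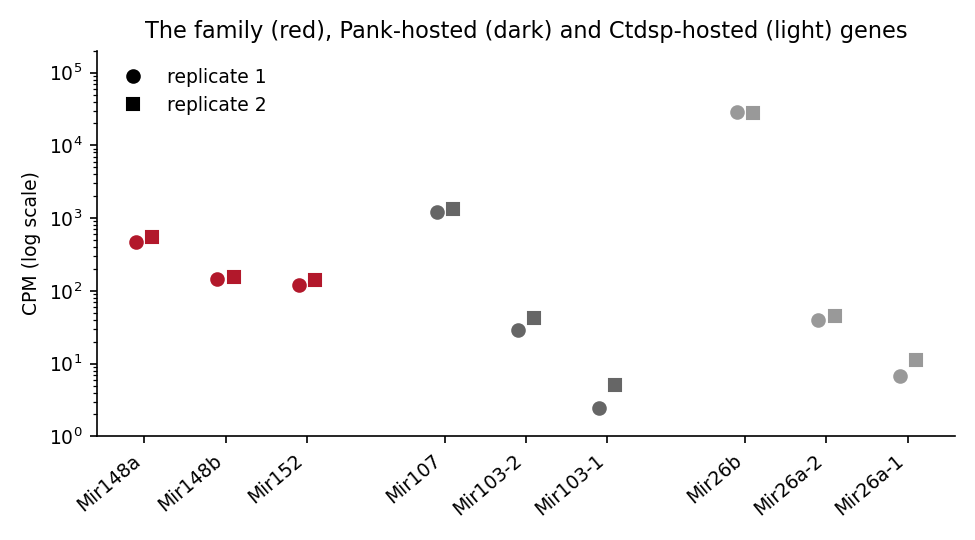
CPM on a log axis for the members of the miR-148/152 family (red), the Pank-hosted family (dark grey) and the miR-26 family (light grey), with circles for replicate 1 and squares for replicate 2. The miR-148/152 members lie from 121 to 542 CPM, a narrower range than in the other families, where 5 of 6 members share sequence with another gene.

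Other microRNAs known to act on enzymes of DNA methylation and chromatin were listed beside the family, namely the miR-29 genes, which act on Dnmt3a and Dnmt3b, and the miR-101 and miR-26 genes, which act on Ezh2. Of 10 listed genes 9 had a row and 7 were detected, and the 9 genes had a median of 49.8 CPM. Mir101b reached 1380 ± 133 CPM, Mir101a 94.8 ± 16.5 CPM, Mir29c 64.2 ± 9.97 CPM and Mir29a 49.8 ± 14.6 CPM. The miR-26 levels are given above, and Mir26b led the list at 28181 ± 604 CPM. Mir148a alone thus held more reads than Mir29a and Mir29c together, but fewer than Mir26b or Mir101b. Each Copz-hosted member held more than Mir29a or Mir29c. Of the 9 genes with a row, 7 have such a stretch in common with a further gene, Mir29c and Mir101b among them, while Mir29a does not. Between the libraries 1 of the 7 tested genes was higher in replicate 1 and 3 were lower by the exact binomial test with TMM scaling, beside 33.6% called over all 455 genes. That share is no background for this list, because the power of the test rises with the number of reads. The direction of such calls depends on the scaling, as given above.

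Markers of other cell types were read in the same libraries because miR-148a is abundant in liver and known in lymphocytes. The kidney list, led by Mir10a, was detected with 8 of 8 members and summed to 262125 CPM in replicate 1 and 244989 CPM in replicate 2. Mir10a and Mir10b held most of that sum, with means of 154681 and 61412 CPM, followed by Mir30e (21388 CPM) and Mir30a (15587 CPM). The other members were far lower, with means of 227 CPM for Mir204, 164 for Mir192, 95.2 for Mir194-2 and 3.40 for Mir194-1. The liver marker Mir122 stood at 210 and 171 CPM in replicates 1 and 2. Mir148a was lower in replicate 1 than in replicate 2 in CPM. Most genes that passed the exact binomial test on library totals were lower in replicate 1 as well. With TMM scaling the log2 ratio of replicate 1 over replicate 2 was -0.08 for Mir148a and 0.44 for Mir122. The part of liver RNA in the level of Mir148a was not tested. Of the 4 pancreas markers, only Mir375 was detected, at 867 and 537 CPM, while Mir216a, Mir216b and Mir217 had 1 to 9 reads in each library.

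The leukocyte list had a row for 4 of 5 markers, all detected, and summed to 2918 CPM in replicate 1 and 3916 CPM in replicate 2. Mir342, known from lymphocytes and other leukocytes, held most of it, and the lymphocyte marker Mir150 stood at 13.9 and 24.8 CPM. The erythroid list, with 3 of 3 detected, summed to 313 and 434 CPM. In CPM these sums and Mir148a were all higher in replicate 2. On that scale, which divides by library totals, most genes that passed the exact binomial test were also higher in replicate 2. The shared direction therefore sets up no link between them, and the part of these cells in the level of Mir148a was not tested. In bulk tissue, fewer cells of a type and less RNA per cell cannot be told apart. Epithelial markers summed to 26285 and 26770 CPM with 5 of 5 detected, and smooth muscle markers to 25617 and 36005 CPM with 2 of 2 detected. Endothelial Mir126a stood at 52632 and 51554 CPM, and Mir202 of gonads at 1.13 and 8.84 CPM.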

How the data were processed

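MicroRNA-seq of 2 libraries of E16.5 mouse kidney was analysed as 1 group. The authors deposited raw counts per microRNA gene on mm10 with annotation M4, per the accompanying text files. Which aligner, counting program and trimming were used was not given in the sources used here. Of 3 unnamed count columns the first equals the sum of the others in every gene row, and the second was taken as the strand of the gene. Sense reads in gene rows (5317669 and 7128703 in replicates 1 and 2) set the CPM. The 4 rows that name no gene, 55.2% and 51.5% of all reads, were left out, and in them reads mapping to several places made up 28.0% and 25.3% of all reads.

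Symbols and positions came from GENCODE M21 on GRCm38, which is mm10, with 1894 of 1973 identifiers matched. RefSeq sequences on GRCm38.p6 were found for all 3 members and folded in RNAfold 2.7.2. Scaling and spread came from edgeR 4.0.16 and DESeq2 1.42.0, intervals and binomial tests from SciPy 1.17.1. The binomial test alone was tried on simulated counts. They held counting error only, so they do not show how it behaves with variation between libraries. A quasi-likelihood fit was not possible with 1 library a side. Intervals and the limit of 3 reads cover counting error alone, because the reads carry no molecular identifiers. Named genes are the members, for each member the 3 nearest genes and the 2 ranks on each side, and the listed genes. Members and lists were chosen with earlier results of these data known.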

Additional observations from a re-analysis of the deposited data

How the results depend on the processing

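The main results were compared with an alternative 48 times. In 42 the value stayed within 1 SD of the libraries, on the same side of the replicate spread or within 1.5 times the count. Part of this was fixed in advance. With 2 libraries, leaving out either moves a mean level or share by less than 1 SD, whatever the values. TMM and DESeq2 factors move the libraries in opposite directions, so a mean level hardly changes. With all reads of the table as denominator, Mir148a stood at 235 CPM, Mir148b at 70.1 CPM, Mir152 at 61.6 CPM and the family at 0.0367%, since that denominator also holds the rows that name no gene. Leaving out each library in turn gave 464 to 542 CPM for Mir148a, 145 to 155 CPM for Mir148b, 121 to 142 CPM for Mir152 and 0.0730% to 0.0840% for the family. The log2 ratios then ran from 1.68 to 1.81 for Mir148a over Mir148b, 1.93 to 1.94 for Mir148a over Mir152 and 0.12 to 0.26 for Mir148b over Mir152. The last ratio stayed within the replicate spread also when that spread was taken from genes of at least 1000 CPM (1.20-fold) or without Mir449a (1.26-fold), the second of which was chosen after seeing the data. Genes 1.5-fold or more apart between the libraries numbered 102 of 455, and 300 of 710 when all genes with at least 1 read were kept. The exact binomial test passed 153 genes, the edgeR exact test with a biological coefficient of variation of 0.2 passed 3, and no member was among the latter. On library totals Mir148b reversed to a log2 ratio of -0.10, and Mir148a (-0.22) and Mir152 (-0.24) passed the binomial test, since totals lack the TMM shift. Over the scalings, filters and strands tried, adjusted p of the exact binomial test ran from 7.5e-09 to 0.21 for Mir148a, 0.26 to 0.79 for Mir148b and 0.0036 to 0.50 for Mir152. No paired analysis was possible because the series holds 1 group. With 2 libraries, replicate spread rests on 1 difference per gene.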
